A study of Homo sapiens with 6 samples.

Results

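The zinc finger genes of chromosome 19 with symbols of ZNF plus a number make up 246 of the 1410 protein-coding genes of chromosome 19 in the RefSeq table of GRCh38.p14, and 246 of 19821 protein-coding genes in all. They were chosen by symbol and position. The rule uses no measured value, though it was set with earlier results of these data known. Of the members, 6 carry a letter after the number. Another 263 ZNF genes lie on other chromosomes. Open chromatin was mapped by ATAC-seq, which inserts sequencing adapters into accessible DNA with the transposase Tn5. The cells were Nthy-ORI, an immortalised line from normal human thyroid follicular epithelium. All groups were first kept for 24 h without hormone, in medium with charcoal-stripped serum. The groups then received triiodothyronine (T3, the active form of thyroid hormone) at 10 nM for 24 h, T3 at 10 nM for 6 h, or the NaOH vehicle, labelled 6 h, with 2 samples each. No label tells if these were separate cultures. With the vehicle labelled 6 h, hormone and time cannot be told apart at 24 h.

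Most ZNF genes of chromosome 19 are thought to have arisen by tandem duplication, and they lie in clusters of similar genes. Their proteins bind DNA through arrays of C2H2 zinc fingers, each of which contacts a few bases, and the array is typically coded in the last exon. Many also carry a KRAB domain, which recruits the co-repressor TRIM28 and through it the histone methyltransferase SETDB1. KRAB zinc finger proteins are known for silencing transposable elements, and the 3 prime exons of ZNF genes are themselves known to carry repressive chromatin in many cell types.

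The authors deposited 1 peak list per group, made from both of its replicates by the irreproducible discovery rate (IDR) method, which retains peaks of similar rank in each. The lists held 60661 peaks at T3 24 h, 12385 at T3 6 h and 7103 in vehicle, of which 1842, 196 and 81 lay on chromosome 19. The median distance between the summits of the replicates was 46, 222 and 180 bp in the T3 24 h, T3 6 h and vehicle lists. Read depth is unknown, and a gene without a peak is not shown to be closed. With 1 list per group there is no replicate check on a difference between lists and no p-value is given. The 95% intervals are exact Clopper-Pearson intervals and cover counting error only. As a check of the cell type, 10 thyroid follicular genes were listed. At T3 24 h 5 of the 10 (PAX8, NKX2-1, FOXE1, HHEX and TSHR) had a peak within 1 kb of a gene end. Of these, 1 (PAX8) also had one at T3 6 h and 0 had one in vehicle. The share of all genes with such a peak was 65.3% at T3 24 h, 11.9% at T3 6 h and 1.48% in vehicle. The 5 of 10 at T3 24 h was not above that share, so this check does not speak for the cell type. TG, DUOX2 and SLC5A5 had T3 24 h peaks inside the gene only, and DIO1 had no peak in any list.

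The promoters of 8 members that take part in the contrasts below are printed here. Each runs from 250 bases before to 30 bases after the RefSeq start, 5′ to 3′ in the direction of the gene, as RefSeq gives it for GRCh38.p14. Capitals mark CCAAT on either strand, a box bound by NF-Y, and CCGGAAGT on either strand, a form of the ETS-family site. ZNF431, ZNF714 and ZNF91 belong to the cluster beside the centromere and had strong peaks at T3 24 h. ZNF43 and ZNF430 belong to the same cluster, have similar promoters and had no peak in any list. ZNF547 had the strongest start peak at T3 24 h, ZNF846 had a peak in both T3 lists, and ZNF791 had one at T3 24 h and in vehicle. They lie at chr19:21141790-21142069 (+ strand), chr19:21081953-21082232 (+ strand), chr19:23395442-23395721 (- strand), chr19:21836153-21836432 (- strand), chr19:21020407-21020686 (+ strand), chr19:57363301-57363580 (+ strand), chr19:9768709-9768988 (- strand) and chr19:12610670-12610949 (+ strand).
ZNF431: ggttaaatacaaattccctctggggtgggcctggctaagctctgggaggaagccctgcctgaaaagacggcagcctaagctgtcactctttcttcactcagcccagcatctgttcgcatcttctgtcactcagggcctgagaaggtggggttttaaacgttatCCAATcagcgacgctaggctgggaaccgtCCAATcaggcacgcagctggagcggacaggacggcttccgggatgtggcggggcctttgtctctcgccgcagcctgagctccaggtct
ZNF714: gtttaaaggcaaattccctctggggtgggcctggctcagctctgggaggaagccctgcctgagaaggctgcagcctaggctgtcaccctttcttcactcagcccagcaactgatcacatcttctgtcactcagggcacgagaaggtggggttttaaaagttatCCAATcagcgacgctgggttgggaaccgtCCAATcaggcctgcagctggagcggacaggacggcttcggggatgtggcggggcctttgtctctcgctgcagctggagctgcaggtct
ZNF91: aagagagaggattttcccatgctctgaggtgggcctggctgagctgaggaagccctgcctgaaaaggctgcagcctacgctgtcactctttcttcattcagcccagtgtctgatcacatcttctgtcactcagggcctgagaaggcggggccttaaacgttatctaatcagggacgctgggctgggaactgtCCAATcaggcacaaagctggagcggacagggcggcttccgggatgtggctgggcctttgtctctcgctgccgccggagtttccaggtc
ZNF43: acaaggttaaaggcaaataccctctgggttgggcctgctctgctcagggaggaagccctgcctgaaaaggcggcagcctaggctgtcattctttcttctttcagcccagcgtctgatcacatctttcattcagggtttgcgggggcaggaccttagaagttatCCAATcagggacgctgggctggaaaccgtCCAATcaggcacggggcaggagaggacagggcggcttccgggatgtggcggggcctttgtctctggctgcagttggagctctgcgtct
ZNF430: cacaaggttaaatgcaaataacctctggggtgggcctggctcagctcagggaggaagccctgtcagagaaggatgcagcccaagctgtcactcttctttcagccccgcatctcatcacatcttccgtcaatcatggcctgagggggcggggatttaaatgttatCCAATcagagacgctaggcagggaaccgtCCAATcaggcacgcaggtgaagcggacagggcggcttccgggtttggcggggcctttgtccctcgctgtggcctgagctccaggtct
ZNF547: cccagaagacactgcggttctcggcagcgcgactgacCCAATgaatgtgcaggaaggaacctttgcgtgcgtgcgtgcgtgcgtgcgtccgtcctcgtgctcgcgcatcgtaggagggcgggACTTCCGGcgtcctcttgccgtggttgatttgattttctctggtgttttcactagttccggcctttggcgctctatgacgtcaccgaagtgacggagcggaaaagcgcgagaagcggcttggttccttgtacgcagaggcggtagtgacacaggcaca
ZNF846: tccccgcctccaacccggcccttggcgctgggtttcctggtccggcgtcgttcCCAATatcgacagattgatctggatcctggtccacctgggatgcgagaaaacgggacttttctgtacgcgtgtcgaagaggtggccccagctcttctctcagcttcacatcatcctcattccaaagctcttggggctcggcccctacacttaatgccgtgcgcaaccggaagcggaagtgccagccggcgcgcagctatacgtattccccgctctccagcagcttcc
ZNF791: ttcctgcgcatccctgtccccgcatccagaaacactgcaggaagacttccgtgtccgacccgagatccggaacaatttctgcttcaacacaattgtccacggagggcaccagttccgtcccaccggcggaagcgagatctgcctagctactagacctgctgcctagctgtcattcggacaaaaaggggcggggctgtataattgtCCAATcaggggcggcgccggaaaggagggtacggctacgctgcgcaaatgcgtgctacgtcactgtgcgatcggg

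At T3 24 h, 172 of the 216 members with a known strand had a start peak (79.6%, interval 73.6 to 84.8), that is, a summit within 1 kb of a RefSeq start. The share was 66.3% over all 15812 protein-coding genes with a known strand, and 52.0% (48.8 to 55.2), or 504 of 969, over the other genes of chromosome 19. ZNF genes of other chromosomes stood higher still, at 185 of 214 (86.4%, 81.1 to 90.7). At T3 6 h, 9 members had a start peak (4.17%, 1.92 to 7.76), against 54 other genes of chromosome 19 (5.57%) and 12.4% of all genes. In vehicle, 3 members had one (1.39%, 0.29 to 4.01), against 4 other genes of chromosome 19 (0.41%) and 1.35% of all genes. The members' share was thus above that of all genes at T3 24 h, below it at T3 6 h and near it in vehicle. Against other chromosome 19 genes it was above at T3 24 h. At T3 6 h and in vehicle the members' intervals overlapped those of these genes (4.21 to 7.21 and 0.11 to 1.05). ZNF genes of other chromosomes, in contrast, had a start peak in 41 of 214 cases at T3 6 h (19.2%, 14.1 to 25.1) and in 6 in vehicle (2.80%, 1.04 to 6.00). The intervals of both ZNF sets did not overlap at T3 6 h.

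**Figure D1:**
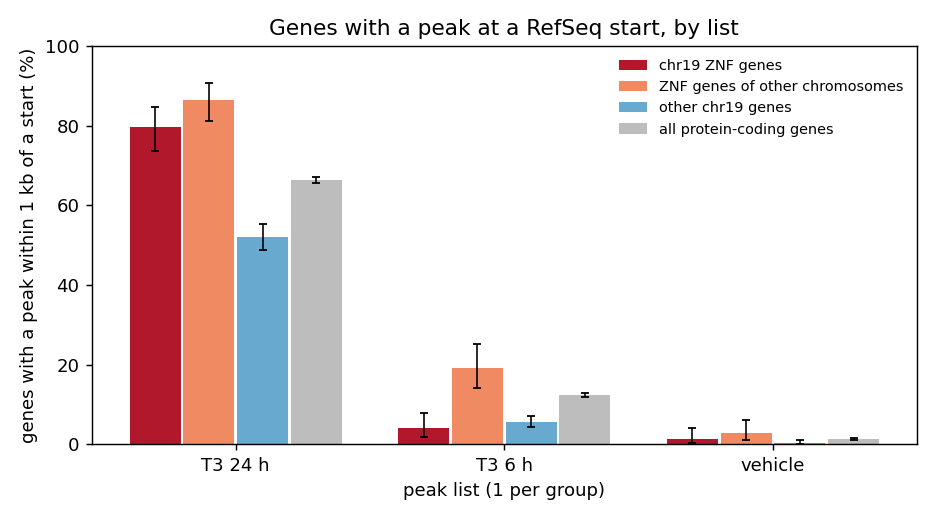
Share of genes with a peak summit within 1 kb of a RefSeq start (%, vertical axis) in the T3 24 h, T3 6 h and vehicle lists, for 216 chr19 ZNF genes, 214 ZNF genes of other chromosomes, 969 other chr19 genes and all 15812 protein-coding genes with a known strand. Bars are shares and whiskers exact 95% intervals for counting error; the chr19 ZNF genes stand at 79.6% at T3 24 h, above other chr19 genes at 52.0%, and at 4.17% at T3 6 h, below the ZNF genes of other chromosomes at 19.2%.

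The T3 24 h list is the longest by far, and these shares depend on its length. When every list was limited to its 7103 strongest peaks, 19.9% of members had a start peak at T3 24 h, against 7.64% of other chromosome 19 genes and 19.3% of all genes. The members then still stood above the rest of their chromosome, but no longer above the background of all genes. In those lists 1.39% of members had a start peak at T3 6 h (all genes 7.14%) and 1.39% in vehicle (all genes 1.35%). Ranked by 1 replicate column, the T3 6 h list of that length held 2.31% or 1.85% of members. The difference from other chromosome 19 genes at T3 24 h remained without genes used in few tissues. Olfactory receptor, kallikrein, CEACAM, PSG, KIR, LILR, SIGLEC and VN1R genes of the chromosome had a start peak in 7 of 68 cases (10.3%), and without them and other C2H2 genes 485 of 885 genes did (54.8%, 51.5 to 58.1).

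Between lists, 169 members had a start peak at T3 24 h and none in vehicle (78.2%), against 65% of all genes. The converse held for 0 members and for 17 of all 15812 genes. Between the T3 times, 163 members had one at T3 24 h and none at T3 6 h (75.5%), against 54.2% of all genes. For T3 6 h without vehicle the count was 9 (4.17%), against 11.9% of all genes. A vehicle start peak and none at T3 6 h were found for 3 members and for 124 of all 15812 genes. Over the 3 lists, 160 members had a start peak only at T3 24 h, 9 at both T3 times, 3 at T3 24 h and in vehicle, 0 in all 3 lists and 44 in none. Every member with a start peak at T3 6 h or in vehicle therefore also had one at T3 24 h. Most of all genes were nested likewise. A T3 24 h start peak was present for 1901 of the 1964 genes with one at T3 6 h. It was present for 196 of the 213 genes with one in vehicle.

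The 30 members without a strand in the tables used here cannot be given a start. Of these, 14 had a summit within 1 kb of either gene boundary at T3 24 h, 1 at T3 6 h and 0 in vehicle, and 11 had no peak in any list. Counting any peak inside a gene or within 1 kb of it, 195 of all 246 members had one at T3 24 h (79.3%), against 69.2% of other chromosome 19 genes and 77.5% of all genes. At T3 6 h 14 members did (5.69%, all genes 22.7%), and in vehicle 6 did (2.44%, all genes 8.16%). In all, 198 members had a peak in at least 1 list and 48 in none.

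The start peaks of the members at T3 24 h were 182 distinct regions with a median summed signal of 17.7 and a range of 8.41 to 36.5. The signal is the authors' value, and as its normalisation is not stated it only ranks peaks within 1 list. The median signal was 7.99 in the first and 9.62 in the second replicate column, and the second was higher for 144 of the 182 peaks. The median distance between replicate summits was 46.5 bp, and 135 peaks had them within 100 bp of each other. The 10497 start peaks of all genes were similar, with a median signal of 17.6 and a median summit distance of 49 bp. Among them the second column was higher for 72.6%, against 79.1% for members. Their summits lay within 100 bp for 70.1%, against 74.2% for members. The median distance of the summit from the nearest start was 71 bp for members and 74 bp for ZNF genes of other chromosomes. It was 111 bp for all genes and 137.5 bp for other chromosome 19 genes.

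The strongest was that of ZNF547, at chr19:57363003-57363655, with signals of 15.1 and 21.4 in the replicate columns and a sum of 36.5, at percentile 99.1 of the T3 24 h list. It also lies within 1 kb of a boundary or start of TRAPPC2B, a gene for a subunit of a vesicle-tethering complex, so that it cannot be given to ZNF547 alone. The ZNF431 peak at chr19:21141777-21142480 had 14.97 and 19.6, the ZNF846 peak at chr19:9768266-9769031 had 15.4 and 18.7, and the ZNF714 peak at chr19:21081986-21082739 had 13.2 and 18.7. ZNF8, ZNF724, ZNF527, ZNF91, ZNF225 and ZNF584 completed the 10 strongest, with summed signals of 31.8, 30.8, 29.96, 29.8, 29.2 and 28.4. ZNF91 codes for a KRAB zinc finger protein known to repress SVA and LINE-1 retrotransposons, and its peak lay at chr19:23394981-23395700 with signals of 12.5 and 17.3. For all 10 of these members the second replicate column was the higher, as it was for 72.6% of the start peaks of all genes. The distance between the replicate summits of these 10 was 0 to 64 bp. All 10 kept a start peak under the alternatives for summit position, window, IDR, summit distance and list length, with 1 exception: ranked by the first replicate column, the list of 7103 peaks held 9 of them. Among the members without a strand, ZNF473, which codes for a factor of histone pre-mRNA processing, had a boundary peak of 28.8 that it shares with VRK3, and ZNF471 one of 28.3.

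**Figure D2:**
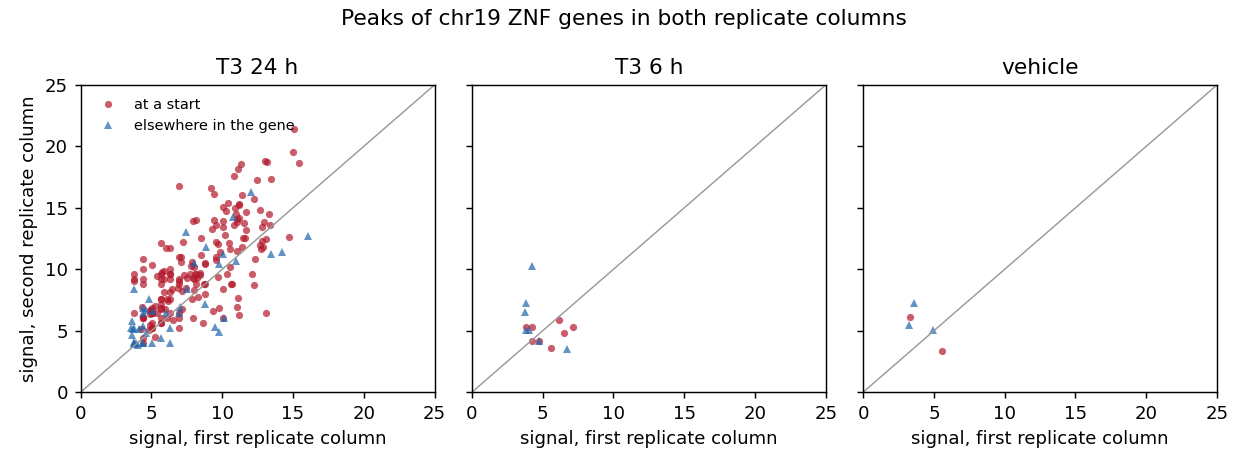
Deposited signal of each member's peak in the second replicate column (vertical axis) against the first (horizontal axis), in the T3 24 h, T3 6 h and vehicle lists; circles are peaks at a start, triangles peaks elsewhere in the gene or at a boundary of a member without a strand, and the grey line marks equal values. Panels share axes only for layout, since signals are not comparable between lists. At T3 24 h 144 of 182 start peaks lie above the line (79.1%, against 72.6% of the start peaks of all genes).

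Of the 182 regions, 25 also counted for another gene, among them 13 for another member, and 7 were a start peak of both members. The pairs that shared a start peak included ZNF490 and ZNF791 (27.6), ZNF146 and ZNF565 (22.98), ZNF569 and ZNF570 (19.4), ZNF345 and ZNF790 (19.03) and ZNF461 and ZNF567 (16.3). A list of peaks cannot say which gene of such a pair the open region serves.

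At T3 6 h the start peaks of the 9 members were 8 regions. ZNF584 had signals of 7.11 and 5.31 at chr19:58407368-58409683, near a second listed start and not the start of its strongest T3 24 h peak. ZNF443 had 6.16 and 5.90, ZNF823 had 6.54 and 4.86, and ZNF569 and ZNF570 had 4.27 and 5.31 in 1 region between them. ZNF846 had 5.60 and 3.57, ZNF260 had 3.79 and 5.31, ZNF383 had 4.74 and 4.13, and ZNF573 had 4.27 and 4.13. The first column was higher in 6 of the 8 and the second in 2, while the second was higher in 57.4% of the T3 6 h start peaks of all genes. All 8 overlapped a T3 24 h peak by at least 50% of the shorter peak, so the regions shared make up 100% of the T3 6 h start peaks and 4.40% of the T3 24 h ones. Matching shares of regions over all genes were not computed. The T3 24 h start peaks of these members were not all strong: ZNF846 stood at percentile 98.4 of the T3 24 h list, ZNF383 at 91.6 and ZNF573 at 30.8. Of the 9 members, 5 (ZNF260, ZNF383, ZNF569, ZNF570 and ZNF573) lie in 1 cluster of 26 members. The T3 6 h calls were the less firm ones. With an IDR of at most 0.01, 3 of the 9 members kept a start peak, and with replicate summits within 100 bp 1 did, ZNF846, whose summits lay 33 bp apart; the summits of ZNF443 lay 927 bp apart and those of ZNF584 732 bp apart.

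In vehicle, 2 regions gave the 3 members. The region at chr19:12610650-12611481 lies between the starts of ZNF791 and ZNF490, with signals of 3.34 and 6.10. ZNF442 had 5.54 and 3.39 at chr19:12365182-12366254. Both overlapped a T3 24 h peak, with summed signals there of 27.6 at ZNF791 and ZNF490 and 24.4 at ZNF442, and neither overlapped a T3 6 h peak. The 3 genes belong to 1 cluster, ZNF653 to ZNF791. With an IDR of at most 0.01, or with replicate summits within 100 bp, 0 members had a vehicle start peak.

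Peaks of members were concentrated at the start of the gene. At T3 24 h, 87.1% of the 217 pairs of a member and a peak were start pairs, against 48.5% of 1103 pairs for other chromosome 19 genes. In bins of 500 bp around the 5 prime boundary, members had 44.4 summits per 100 genes just before and 21.8 just after it, against 32.6 and 8.67 for other genes of the chromosome. From 500 to 1000 bp before the boundary members had 0 summits, and other genes 3.30 per 100. Counted at the 5 prime boundary alone, 150 of the 216 members had a start peak at T3 24 h (69.4%). The others of the 172 members with a start peak had it at another listed start, and 67 members have more than 1. Other genes were not counted at the boundary alone. The 69.4% therefore cannot be set against the 66.3% of all genes, which counts every listed start.

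**Figure D3:**
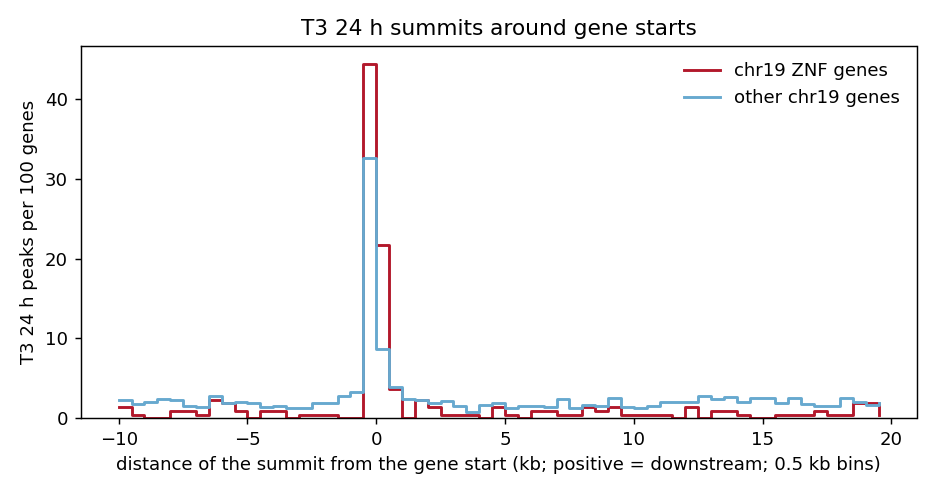
Number of T3 24 h summits per 100 genes (vertical axis) by distance from the 5 prime gene boundary in kb (horizontal axis, bins of 500 bp, positive values downstream), for 216 chr19 ZNF genes and 969 other chr19 genes. The ZNF genes reach 44.4 per 100 genes just upstream of the start, against 32.6 for the other genes, and drop to 0 from 500 to 1000 bp upstream, where the other genes stand at 3.30.

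Gene bodies and 3 prime ends of the members held few peaks. At T3 24 h a body peak, inside the gene and away from its start and end, was present in 19 of 246 members (7.72%, 4.71 to 11.8), against 347 of 1164 other chromosome 19 genes (29.8%, 27.2 to 32.5) and 39.7% of all genes. Per length the members had 3.59 body peaks per Mb of gene, against 22.6 for other genes of the chromosome. A summit within 1 kb of the 3 prime end was present in 5 of 216 members (2.31%, 0.76 to 5.32), against 95 of 969 other chromosome 19 genes (9.80%, 8.0 to 11.9) and 6.28% of all genes. In the last 5 kb of the gene, where the zinc finger exon usually lies, the counts were 9 members (4.17%) and 178 other genes (18.4%). Over all genes the share was 14.2%. Exon positions were not used here, so a summit in that stretch is not shown to lie in the zinc finger exon. ZNF genes of other chromosomes stood above the members in each class. Of these, 31.9% had a body peak, 5.14% (2.59 to 9.01) a 3 prime end peak and 12.6% a peak in the last 5 kb. At the 3 prime end the intervals of both ZNF sets overlapped. At T3 6 h and in vehicle 0 members had a 3 prime end peak (interval up to 1.69% in each), against 0.734% and 0.259% of all genes. Body peaks were present in 4 members at T3 6 h (all genes 12.3%) and in 3 in vehicle (all genes 6.81%).

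The 5 members with a 3 prime end peak at T3 24 h were ZNF324 (7.98 and 10.5 in the replicate columns), ZNF565, ZNF880, ZNF580 and ZNF653, with summed signals of 18.5, 12.4, 10.6, 9.48 and 8.83. The ZNF324, ZNF580 and ZNF880 peaks also lie at a neighbouring member, ZNF446, ZNF581 and ZNF528, so that they cannot be given to 1 gene. ZNF792, ZNF582, ZNF526 and ZNF541 had a peak in the last 5 kb, with 20.5, 10.8, 8.24 and 7.91. Only the ZNF565 and ZNF653 regions at a 3 prime end counted for no other gene in the table.

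The strongest body peak was that of ZNF507, at chr19:32373777-32374154, with 13.4 and 11.2, while the start peak of that gene had a sum of 8.41, the weakest of all member start peaks. ZNF331, an imprinted gene known to be rearranged in thyroid adenomas, had a body peak of 10.0 and 11.2 at chr19:53545286-53546057 and 3 start peaks at T3 24 h, the strongest of 27.8, and no peak in the other lists. By summed signal the next strongest were those of ZNF69 (21.6), ZNF331 (21.3), ZNF792 (20.5), ZNF324B (16.3) and ZNF600 (16.02), of which the ZNF69 and ZNF324B regions also counted for ZNF700 and ZNF132. ZNF536, a gene of 487995 bp known for a role in neurons, had 3 body peaks at T3 6 h, the strongest with 4.27 and 10.3. None of these 3 overlapped a T3 24 h peak, although the gene held 5 body peaks there, of 7.78 to 11.7. ZNF676 (10.2), ZNF554 (8.91) and ZNF91 (8.84) had the other body peaks at T3 6 h. In vehicle these were ZNF728 (10.8), ZNF208 (9.99) and ZNF557 (8.66), and 0 of them overlapped a peak of a T3 list. Away from starts, 1 of 7 T3 6 h member regions was in the T3 24 h list, the boundary peak of ZNF559. Matching shares of such regions over all genes were not computed, so these counts are not shown to be low.

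With neighbouring members at most 500 kb apart, the members form 20 clusters, of which 8 hold at least 10 members and 222 members in all. At T3 24 h the share with a start peak was 94.7% in ZNF575 to ZNF180 (18 of 19), 92.0% in ZNF565 to ZNF573 (23 of 25), 87.5% in ZNF264 to ZNF446 (35 of 40) and 83.3% in ZNF653 to ZNF791 (20 of 24). It was 75% in ZNF175 to ZNF331 (24 of 32) and in ZNF414 to ZNF846 (9 of 12), and 71.4% in ZNF628 to ZNF835 (10 of 14). Of these 8 clusters it was lowest in ZNF101 to ZNF254, which spans 4.46 Mb beside the centromere at chr19:19668153-24129968, with 17 of 29 (58.6%, 38.9 to 76.5). Over all members outside that cluster the share was 155 of 187 (82.9%, 76.7 to 88.0). Both intervals narrowly missed each other, at 76.5 and 76.7. The cluster was set against the rest as the one with the lowest share of the 8, so a gap was built into this comparison. Neighbours also share sequence and position, so members of a cluster are not independent. The cluster held 7.40 T3 24 h peaks per Mb, against 18.8 to 37.0 in the other clusters of at least 10 members, and 14 of its 37 members had no peak in any list.

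The peaks that the ZNF101 to ZNF254 cluster did have were strong. The median summed signal of its start peaks was 24.8, the highest of the 8 clusters, which otherwise had medians of 14.8 to 21.3. ZNF431, ZNF714, ZNF724 and ZNF91, of the 10 strongest members, lie there, and 0 of its members had a start peak at T3 6 h or in vehicle. In the T3 24 h list limited to its 7103 strongest peaks, the order turned round: 37.9% of members inside the cluster had a start peak (11 of 29) and 17.1% outside it (32 of 187). Ranked by 1 replicate column, the shares were 31.0% and 34.5% inside, against 18.7% and 16.6% outside. With replicate summits within 100 bp they came close, at 55.2% inside and 63.1% outside.

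**Figure D4:**
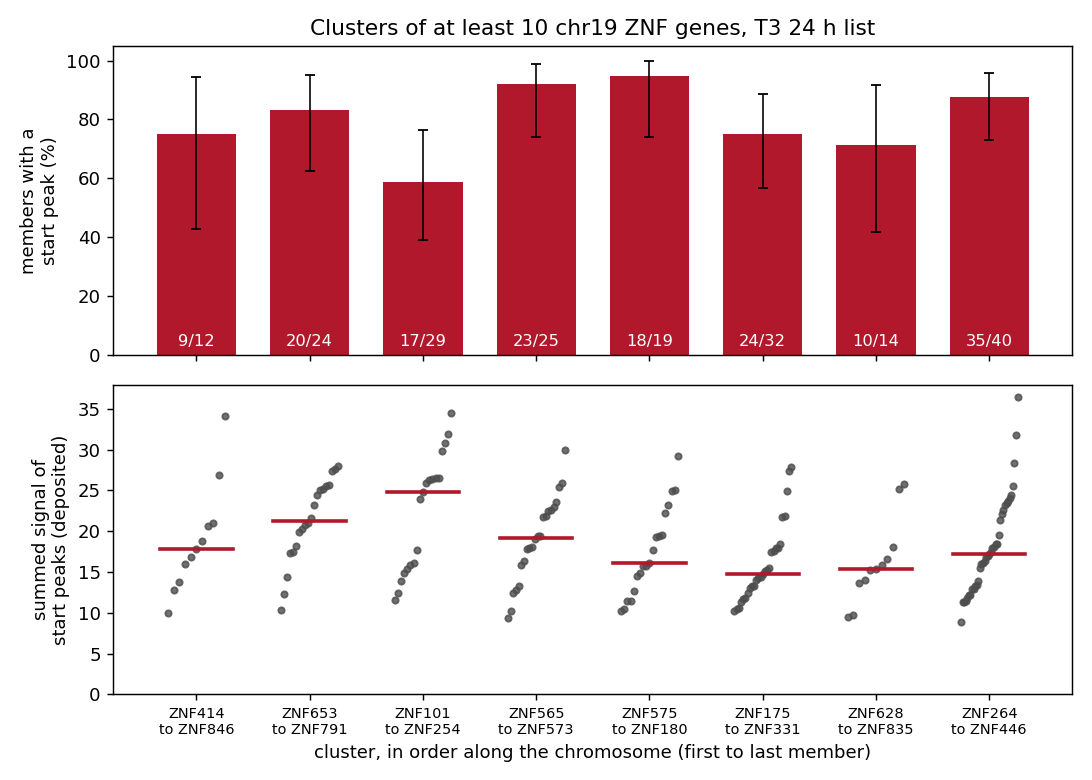
Upper panel, share of members with a T3 24 h start peak (%, vertical axis) in each cluster of at least 10 members, in order along the chromosome, with exact 95% intervals and counts of members. Lower panel, deposited summed signal of each distinct start peak (points) with the median (red line); ZNF101 to ZNF254 has the lowest share, 58.6%, and the highest median, 24.8.

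The longest members with no peak in any list were ZNF577, at 83510 bp, ZNF578, ZNF560, ZNF43, ZNF723 and ZNF320, the last at 44830 bp. ZNF43 and ZNF723 belong to the cluster beside the centromere and ZNF577, ZNF578 and ZNF320 to ZNF175 to ZNF331, which with 11 of 39 had the next largest number of members without a peak. Gene length did not separate the members: in 4 classes of 54 members by length, from the shortest, 79.6%, 81.5%, 85.2% and 72.2% had a T3 24 h start peak. Other chromosome 19 genes in the same length classes had 45.7%, 56.7%, 64.1% and 60.6%. The gap between both sets was therefore 33.9 percentage points among genes of up to 14814 bp and 11.6 among those over 34396 bp, and members stood higher in every class.

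Promoter sequence was set beside the peaks in the 268 RefSeq promoters of members and the 1280 of other chromosome 19 genes, each of 300 bases. Promoters of members had a median of 20 CpG dinucleotides and a GC content of 60.0%, against 21 and 64.3% for other genes of the chromosome. With fewer than 10 CpG, 39.1% of member promoters had a T3 24 h peak (9 of 23), against 11.8% of other promoters. With 10 to 19 CpG the shares were 74.0% and 38.6%, with 20 to 29 CpG 89.7% and 69.0%, and with 30 or more 73.7% and 67.3%. In the lower classes the members' intervals lay above those of other genes, and with 30 or more CpG both overlapped.

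**Figure D5:**
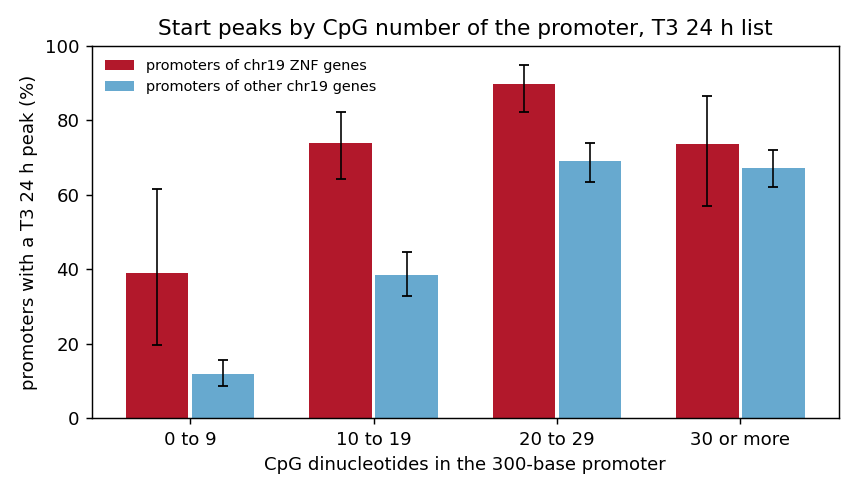
Share of promoters with a T3 24 h peak within 1 kb of the start (%, vertical axis) by number of CpG dinucleotides in the 300-base promoter (horizontal axis), for promoters of chr19 ZNF genes and of other chr19 genes, with exact 95% intervals for counting error. The ZNF promoters stand higher in each class, from 39.1% against 11.8% with fewer than 10 CpG to 73.7% against 67.3% with 30 or more, where the intervals overlap.

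Of 8 motifs searched on both strands, CCAAT and CCGGAAGT differed most, in percentage points, from the background of all promoters. CCAAT was in 134 of 268 member promoters (50%), against 35.6% of other chromosome 19 promoters and 34.6% of all 22139 promoters of protein-coding genes. It was in 47.3% of member promoters with a T3 24 h peak and 59.0% of those without, and by cluster in 29 of 30 promoters of ZNF101 to ZNF254 and 23 of 26 of ZNF653 to ZNF791. CCGGAAGT was in 48 member promoters (17.9%), against 4.30% of other chromosome 19 promoters and 5.35% of all. It was in 21.3% of member promoters with a T3 24 h peak and in 6.56% of those without, a difference in the same direction as in other chromosome 19 genes, at 8.14% and 0.88%. Of the 48, 23 were in ZNF264 to ZNF446 (53.5% of its 43 promoters), the cluster of ZNF547, and 0 in ZNF101 to ZNF254. AGGTCA, the core site of thyroid hormone and other nuclear receptors, was in 13.1% of member promoters and 11.9% of all, and 12.1% of members' promoters with a T3 24 h peak. The direct repeat of that core known as DR4 was in 0 of the 268 and in 2 of all promoters. The NRF1 palindrome was in 11.2% of member promoters (all 7.40%), the AP-1 site TGANTCA in 5.97% (all 6.16%), the extended YY1 site in 1.49% (all 1.68%) and the palindromic CGCG element in 0.75% (all 0.57%). A match is a stretch of letters, not a bound site, and these windows say nothing of the rest of each gene.

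Promoters in the ZNF101 to ZNF254 cluster resemble each other, as the printed sequences show. The 5 printed ones from this cluster were 78.4% to 91.4% identical in pairs when aligned, and 43.4% to 47.7% identical to the 3 from elsewhere. Of these 5, ZNF431 was 91.4% identical to ZNF714 and 83.9% to ZNF91, which both had strong peaks, and 84.6% to ZNF430 and 81.7% to ZNF43, which had none. In this cluster 26 of 30 promoters held at least 1 stretch of 30 bases that recurs in another promoter of the table. Over all member promoters, this cluster included, 60 of 268 did (22.4%), and 6.80% of other chromosome 19 promoters. In the other clusters of at least 10 members the share was 0% to 34.6%. Within ZNF101 to ZNF254 the number was 14 of 18 for promoters with a T3 24 h peak and 12 of 12 for those without. The median number of CpG was 10 in both. Such stretches were few: in the 5 printed promoters they made up 4.06% to 12.9% of the 30-base stretches, and 0 of the 268 member promoters passed 50%, against 21 of 1280 other chromosome 19 promoters. How reads that map to more than 1 place were treated is not given in the sources used here, and the part of mapping in the low share of the cluster was not tested.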

How the data were processed

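ATAC-seq of Nthy-ORI cells was deposited as 3 peak lists, 1 for each group of 2 samples. Per the submitters' processing notes, the tools were Bowtie2, MACS2, Trim Galore, DiffBind and CASAVA 1.7 and the build was hg38. How duplicates and multiply mapping reads were treated is not given in the sources used here, nor are settings. The deposited score is a scaled IDR, and the deposited −log10 of the IDR put every peak at 0.05 or less. The signal, as deposited, is the sum over both replicates, its normalisation is not stated, and read depth is unknown.

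Peaks were placed at the mean of both replicate summits. Genes and starts came from RefSeq tables of GRCh38.p14, the assembly of hg38, without alternate scaffolds. The promoter table gave the strand of 216 members (87.8%). Peaks counted as shared with an overlap of 50% or more of the shorter one. Python 3.11.15, numpy 2.4.6, pandas 2.3.3, scipy 1.17.1 and matplotlib 3.10.9 were used. In simulated data 200 summits were planted at starts or 3 prime ends of chromosome 19 genes. All 200 were found, but a 3 prime summit was also accepted when classed as a start peak. This check thus does not show that 3 prime and start peaks were told apart, and no body peaks were planted. Overlaps were checked with bedtools 2.31.1. No test was run, since each group has 1 list.

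Members, lists and alternatives were chosen with earlier results of these data known. The text names, by rule, the 10 strongest start peaks per list, members with start peaks in more than 1 list, the 6 strongest 3 prime and body peaks per list, the 6 longest members with no peak, co-repressor genes and other C2H2 genes of the chromosome. Other names were added after their values were seen. Finger numbers and exons were not analysed here. A marker of the thyroid follicular list is not reported here.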

Additional observations from a re-analysis of the deposited data

How the results depend on the processing

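No paired analysis was possible because the replicate columns carry no number and each group has 1 list. The direction of the T3 24 h difference between members and other chromosome 19 genes was kept in all alternatives run. With replicate summits within 100 bp, start peaks were in 62.0%, 0.463% and 0% of members in the T3 24 h, T3 6 h and vehicle lists, and any peak in 62.2%, 0.813% and 0.407%. With an IDR of at most 0.01, start peaks were in 1.39% at T3 6 h and 0% in vehicle, and any peak in 1.63% and 0.407%. In lists of equal length, start peaks were in 19.9% at T3 24 h (18.98% to 20.4% ranked by 1 replicate column) and 1.39% at T3 6 h (1.85% to 2.31%), any peak in 19.5% and 2.44%, and the T3 24 h difference from other chromosome 19 genes was 12.3 percentage points. It was 33.9 in the shortest and 11.6 in the longest genes. Counted at the 5 prime boundary alone, an alternative chosen after seeing the data, 69.4% of members had a start peak at T3 24 h. That is below the main interval of 73.6 to 84.8, and other genes were not counted in this way.

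The difference at T3 6 h, -1.41 percentage points, reversed to 0.315 in the second length class and to 0.15 with an IDR of at most 0.01, and the vehicle difference of 0.976 reversed to -0.363 in the shortest class, each resting on few members. Counted in the last 5 kb, 9 members had a 3 prime peak at T3 24 h. The cause of these changes was not tested. The alternatives for the ZNF101 to ZNF254 cluster were also added after seeing the data. With summits of 1 replicate column, start peaks were in 79.2% to 79.6%, 4.17% and 1.39% of members. Windows of 500 bp and 2 kb, the merged summit column and other overlap limits left these results within their counting intervals or within 1.5 times.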

Other observations

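Most genes whose products act with KRAB zinc finger proteins had T3 24 h peaks. Of 22 such genes with a known strand, 19 had a start peak at T3 24 h (66.3% of all genes), 3 at T3 6 h (12.4%) and 0 in vehicle (1.35%). Counted within 1 kb of either gene end, 24 of all 27 had a peak at T3 24 h (65.3% of all genes), 4 at T3 6 h (11.9%) and 0 in vehicle (1.48%). TRIM28, the co-repressor bound by the KRAB domain, had a T3 24 h peak at chr19:58543580-58544685 with signals of 11.8 and 15.4 in the replicate columns, and no peak in the other lists. SETDB1, the methyltransferase it recruits, had 13.7 and 15.5 at chr1:150926122-150926709. MORC3 (32.7), RBBP4 (32.4), PPHLN1 (31.5) and CBX3 (30.2), a heterochromatin protein gene, had the strongest of these peaks. TRIM24, CBX5, ATF7IP and CBX1 also had one at T3 6 h, with 11.8, 9.33, 8.99 and 8.58. The 4 genes with a vehicle peak of any kind, HDAC1, MPHOSPH8, TRIM24 and SUMO2, had it inside the gene.

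A list named 18 C2H2 genes of chromosome 19 whose symbols fall outside ZNF plus a number, and 17 were found. Of these 17, 9 had a peak within 1 kb of a gene end at T3 24 h (65.3% of all genes), 1 at T3 6 h (11.9%) and 1 in vehicle (1.48%). ZFP14 had peaks at both T3 times, of 12.5 and 10.5 in the replicate columns at T3 24 h and 5.69 and 5.90 at T3 6 h. ZSCAN5B had the vehicle peak, at its 3 prime end, with 5.71 and 5.09. Of the 11 with a known strand, 8 had a start peak at T3 24 h (66.3% of all genes), 0 at T3 6 h (12.4%) and 0 in vehicle (1.35%), so the T3 24 h count was close to the background.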
